A study of Rattus norvegicus with 9 samples.

Results

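The genes described are 8 Fc receptor genes of the rat tibia: Fcrl2, the Fc gamma receptor genes Fcgr1a, Fcgr2a, Fcgr3a and Fcgr2b, the adaptor genes Fcer1g and Tyrobp, and the neonatal Fc receptor gene Fcgrt. They were taken by gene symbol, 8 of the 23768 genes of the count table, and all 8 passed the filter on low counts that left 16816 genes for testing. The genes were chosen by name with their counts in the PMLGH, GelMA and Model libraries in view, among them the fold changes between these groups, so levels and fold changes are given as descriptions, without p-values. For these 8 genes only the number past the threshold used for all genes is printed, beside the share of all genes past it, and nothing is read from it.

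The samples were tibia of male Sprague Dawley rats, sequenced as total RNA, in 3 groups of 3 libraries: PMLGH (replicates 2, 3 and 4), GelMA (replicates 2, 3 and 4) and Model (replicates 1, 2 and 5). GelMA commonly stands for gelatin methacryloyl, from which hydrogels are made by cross-linking, and the series concerns bone healing in diabetes with a peptide that imitates the enzyme LOX. The labels give neither the meaning of PMLGH, nor the treatment of the Model group, nor the time of sampling or the age of the rats. Whether replicates came from different animals is likewise unstated, and the SDs and p-values therefore measure the spread between these libraries, which may be technical in part.

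Fc receptors are the cell-surface proteins by which immune cells recognise the constant part of antibodies. The activating receptors for IgG carry their signal through the Fc receptor gamma chain, the product of Fcer1g, whose cytoplasmic tail holds an activating tyrosine motif (ITAM), and the kinases Lyn and Syk then drive uptake of the coated particle. Fcgr2b carries an inhibitory motif (ITIM) in its own tail and opposes that signal. Tyrobp, also called DAP12, is a related ITAM adaptor used by Trem2 and other receptors of macrophages and osteoclasts, and in mice loss of both adaptors impairs osteoclast formation. Fcgrt, the FcRn heavy chain, returns IgG and albumin from endosomes to the blood. Fcrl2 is an Fc receptor-like gene whose older rat names in the RefSeq table are Fcrls and Msr2, and in mice Fcrls is known from microglia and macrophages.

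In the RefSeq table of assembly GRCr8, Fcgr2b, Fcgr3a, Fcgr2a and Fcer1g lie on chromosome 13, Fcrl2 and Fcgr1a on chromosome 2, and Fcgrt and Tyrobp on chromosome 1. Fcgr2a carries the older names Fcgr3 and Fcgr3a there, and Fcgr3a the older names Fcgr4 and CD16-2, and a gene named Fcgr2al1 and a pseudogene named Fcgr2a-ps1 lie beside Fcgr2a. No source used here gives the annotation behind the counts or the rule for reads that match several of these neighbours, and the counts of Fcgr2a and Fcgr3a are therefore uncertain.

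RefSeq start-site windows, from 250 bases before to 50 bases after the start, were available for 3 of the 8 genes, and are shown because Fcgr3a and Fcgr2a are neighbours whose levels were both higher in PMLGH than in Model, while Fcgrt was not apart from Model. Each is written 5′ to 3′ on the strand of its gene, and capitals mark GAGGAA or its reverse complement TTCCTC, a core of binding sites of PU.1, the myeloid transcription factor.
Fcgr3a, GRCr8 chr13:85782386-85782685, plus strand: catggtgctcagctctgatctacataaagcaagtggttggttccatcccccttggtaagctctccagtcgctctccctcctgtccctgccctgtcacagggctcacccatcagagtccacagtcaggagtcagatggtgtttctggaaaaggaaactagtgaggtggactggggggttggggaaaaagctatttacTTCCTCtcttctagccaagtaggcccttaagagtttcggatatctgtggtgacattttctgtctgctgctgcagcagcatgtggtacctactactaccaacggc
Fcgr2a, GRCr8 chr13:85828636-85828935, minus strand: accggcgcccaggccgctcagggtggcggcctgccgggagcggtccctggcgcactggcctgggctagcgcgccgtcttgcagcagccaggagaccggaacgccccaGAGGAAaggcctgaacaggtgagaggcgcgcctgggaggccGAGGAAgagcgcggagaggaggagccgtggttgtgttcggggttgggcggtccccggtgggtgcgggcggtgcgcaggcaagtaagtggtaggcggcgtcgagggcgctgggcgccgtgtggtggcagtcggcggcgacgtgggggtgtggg
Fcgrt, GRCr8 chr1:104719977-104720276, minus strand: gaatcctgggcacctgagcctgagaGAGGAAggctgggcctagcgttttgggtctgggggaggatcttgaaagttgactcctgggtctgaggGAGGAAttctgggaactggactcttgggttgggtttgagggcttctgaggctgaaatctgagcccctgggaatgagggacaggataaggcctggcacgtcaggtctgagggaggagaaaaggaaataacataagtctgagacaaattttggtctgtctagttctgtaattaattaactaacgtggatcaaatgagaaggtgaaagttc
The letters GAGGAA, read on both strands, occurred 1 time in the Fcgr3a window, 2 times in that of Fcgr2a and 2 times in that of Fcgrt. A second Fcgr2a start, at chr13:85826683-85826982 on the minus strand, held 0 matches. Of all 33469 rat windows of that length, 27.6% held the letters. The letters TTCNNNGAA, the core of the site of STAT factors induced by interferon gamma, occurred in the Fcgrt window and in 8.87% of all windows. TGANTCA, which covers the AP-1 site, occurred in the second Fcgr2a window and in 7.33% of all windows. These are matches of letters, not measured binding.

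Library totals ran from 34571478 to 37166383 counts, and levels below are in CPM after TMM scaling of the totals; means carry the SD of the 3 libraries of a group (n = 3). Model replicate 2 stood apart from its group: its mean chi-square per gene against Model replicates 1 and 5 was 33.0 and 27.7, against 15.7 between those libraries and 7.56 to 17.1 in the other groups. Fold changes from the edgeR fit carry an approximate SE, and a change is called past the threshold at an adjusted p under 0.05 over all 16816 genes. All gene lists used below were drawn up with earlier results of these data known. Counts and shares of list genes are therefore descriptions, not tests of the lists. Bone cell genes fixed as a list (12 genes) summed to 34760 to 40220 CPM in PMLGH, 33000 to 36570 CPM in GelMA and 16150 to 20490 CPM in Model, and erythroid genes of the marrow summed to 10720 to 11950, 11310 to 12160 and 13310 to 16500 CPM in the same order, so every library held bone and marrow RNA.

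Fcrl2 was the gene of the set that differed most between groups. It had 842, 781 and 558 counts in PMLGH replicates 2, 3 and 4, and 596, 686 and 657 counts in GelMA replicates 2, 3 and 4, against 32, 48 and 35 counts in Model replicates 1, 2 and 5. Its level was 22.7, 21.1 and 15.2 CPM in PMLGH, 16.5, 18.8 and 17.8 CPM in GelMA, and 0.944, 1.35 and 1.03 CPM in Model. All 6 libraries of PMLGH and GelMA lay above all 3 Model libraries, by at least 13.9 CPM, and the PMLGH and GelMA libraries overlapped. In bulk tibia, more cells that express a gene and more RNA per cell cannot be told apart, here and for every gene below.

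Mean Fcrl2 levels were 19.7 ± 3.95 CPM in PMLGH, 17.7 ± 1.15 CPM in GelMA and 1.11 ± 0.215 CPM in Model. The log2 fold change was 4.14 ± 0.18 for PMLGH against Model, a fitted ratio of 17.7, and 3.99 ± 0.18 for GelMA against Model, a fitted ratio of 15.9. Without Model replicate 2 these were 4.28 and 4.13. On the log2(FPKM + 1) scale, which understates changes of low genes, they were 2.65 and 2.55. PMLGH against GelMA gave 0.15 ± 0.14. Among the 14215 genes that averaged 1 CPM or more, Fcrl2 ranked 10th by log2 fold change for PMLGH against Model and 8th for GelMA against Model.

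**Figure D1:**
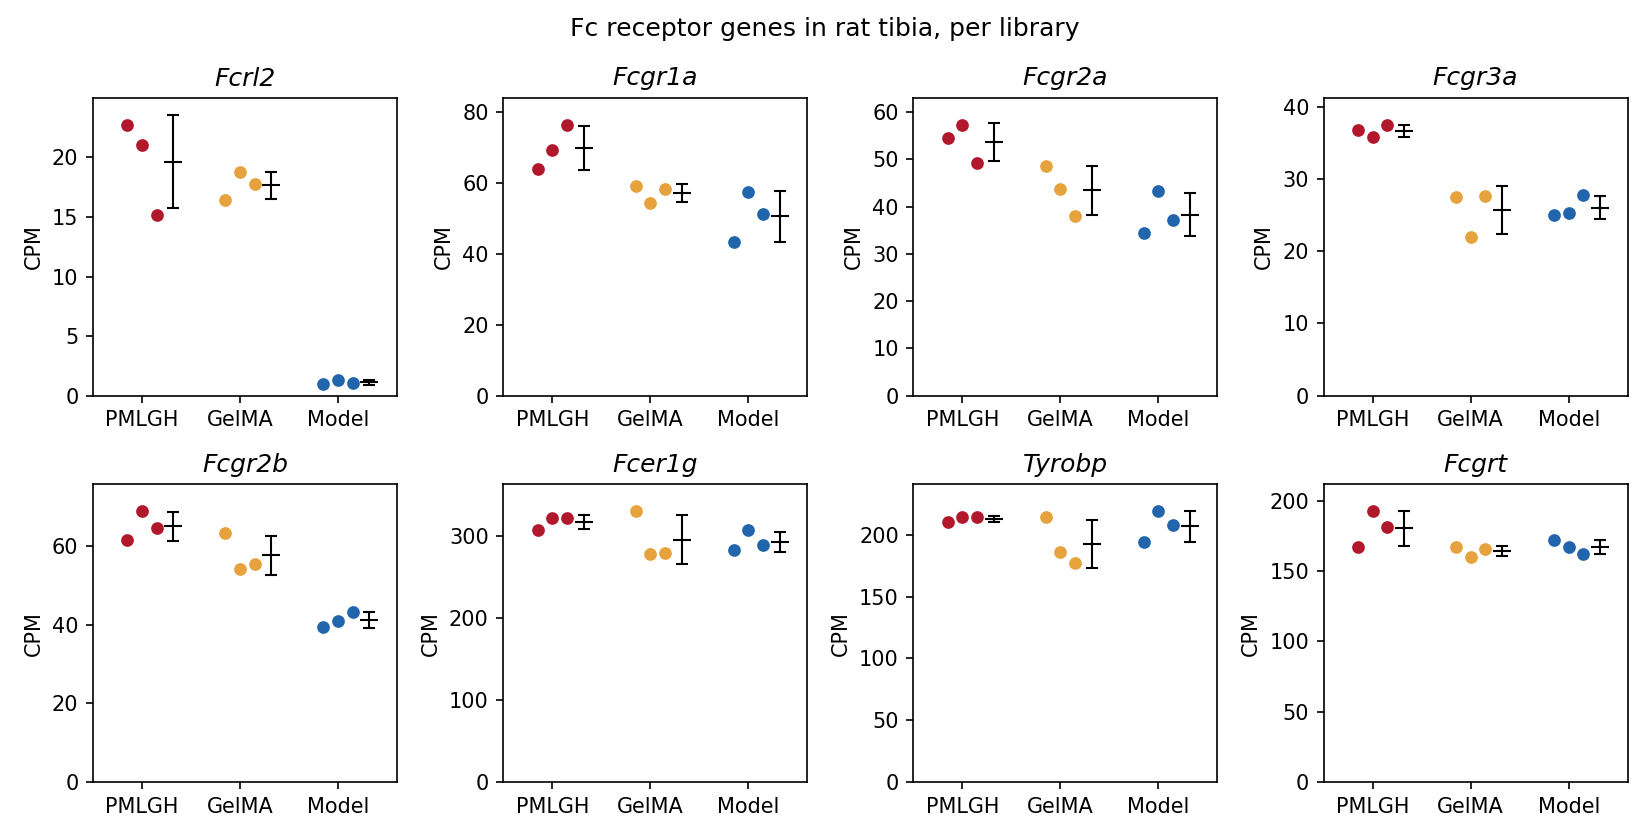
CPM (vertical axes, from 0) of the 8 genes in each library, with PMLGH, GelMA and Model from left to right and 1 point per library; black marks give the mean and SD of 3 libraries. The 3 Model points of Fcrl2 lie at 0.944 to 1.35 CPM and the 6 others at 15.2 to 22.7 CPM, while the points of Tyrobp overlap in every pair of groups.

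The genes whose pattern over the 9 libraries was most like that of Fcrl2 were Cxcl13, Ca4, Ccl7, Cxcl1, Cxcl11 and Cxcl9. Likeness was the root mean square difference of log2 CPM after each gene was centred on its own mean, over 12856 ranked genes, and was 0.317 for Cxcl13, 0.353 for Ca4 and 0.626 to 0.738 for the other 4. All but Ca4, a carbonic anhydrase, are chemokines. Several were near the floor in Model, at 0.059 to 0.141 CPM for Ca4, 0.0563 to 0.206 for Ccl7 and 0.117 to 0.708 for Cxcl11. There the prior count of 2 sets much of log2 CPM, so likeness to Fcrl2 is less certain for these genes. Cxcl13, which attracts B cells, had 102, 79.1 and 69.1 CPM in PMLGH, 59.9, 44.2 and 59.1 CPM in GelMA, and 4.63, 4.98 and 5.40 CPM in Model. Cxcl9, which interferon gamma induces, likewise had its lowest levels in Model. For Cxcl13 the 3 groups did not overlap, and PMLGH also lay above GelMA with no overlap for Ccl7, Cxcl1, Cxcl11 and Cxcl9. PMLGH and GelMA overlapped for Fcrl2 and Ca4. The log2 fold change of PMLGH against GelMA was 0.61 for Cxcl13, 1.13 for Ccl7, 0.84 for Cxcl1, 0.94 for Cxcl11 and 0.98 for Cxcl9. It was 0.28 for Ca4 and 0.15 for Fcrl2.

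**Figure D2:**
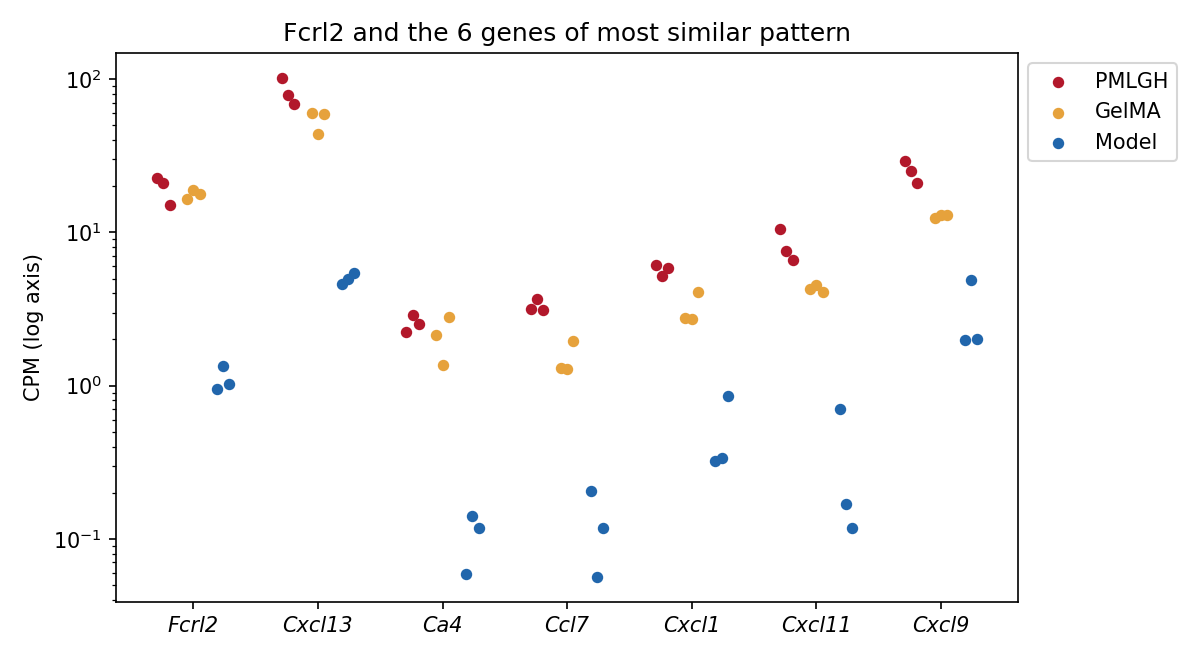
CPM on a log axis of Fcrl2 and the 6 genes of most similar pattern, 1 point per library, with PMLGH, GelMA and Model from left to right within each gene. For each of the 7 genes the Model points lie below the points of both other groups, and the PMLGH and GelMA points overlap for Fcrl2.

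The activating receptor genes were each higher in PMLGH than in Model, by far less than Fcrl2. Fcgr1a, the high-affinity IgG receptor, had 64.0, 69.1 and 76.2 CPM in PMLGH, 59.1, 54.2 and 58.1 CPM in GelMA, and 43.2, 57.3 and 51.1 CPM in Model. The PMLGH libraries lay above those of both other groups, and GelMA overlapped Model. Its log2 fold change was 0.47 ± 0.09 for PMLGH against Model, 0.18 ± 0.09 for GelMA against Model and 0.29 ± 0.09 for PMLGH against GelMA.

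Fcgr2a, a low-affinity activating receptor, had 54.6, 57.3 and 49.2 CPM in PMLGH, 48.6, 43.7 and 38.1 CPM in GelMA, and 34.5, 43.4 and 37.2 CPM in Model. As for Fcgr1a, PMLGH lay above both other groups, which overlapped, although the lowest PMLGH library exceeded the highest GelMA library by only 0.647 CPM. The log2 fold changes were 0.49 ± 0.10 for PMLGH against Model, 0.18 ± 0.10 for GelMA against Model and 0.31 ± 0.10 for PMLGH against GelMA. Fcgr3a, whose older name Fcgr4 is that of a mouse activating receptor, had 36.8, 35.8 and 37.5 CPM in PMLGH, 27.5, 21.9 and 27.7 CPM in GelMA, and 25.0, 25.3 and 27.9 CPM in Model. GelMA and Model overlapped, with a log2 fold change of -0.02 ± 0.09, and PMLGH stood above both, by 0.51 ± 0.09 over GelMA and 0.49 ± 0.09 over Model. In Fcgr3a the difference between PMLGH and GelMA was thus about as large as that between PMLGH and Model.

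Fcgr2b, the inhibitory receptor of myeloid and B cells, was higher in both PMLGH and GelMA than in Model. It had 61.6, 68.8 and 64.5 CPM in PMLGH, 63.4, 54.0 and 55.5 CPM in GelMA, and 39.4, 40.9 and 43.3 CPM in Model. The log2 fold change was 0.66 ± 0.07 for PMLGH against Model and 0.48 ± 0.07 for GelMA against Model, with no overlap in either, and 0.17 ± 0.07 for PMLGH against GelMA, whose libraries overlapped. B cells also carry Fcgr2b: the 12 genes of a B cell list summed to 344.4 to 429.3 CPM in PMLGH, 565.6 to 700.8 CPM in GelMA and 390.5 to 604.0 CPM in Model. Of these 12 genes, 10 fell in PMLGH against GelMA, beside 1.64% of all genes, or 3 to 5 without GelMA replicate 3 or 4 or any 1 PMLGH library, 4 with a robust spread and 0 by limma on log2(FPKM + 1) with no filter. In GelMA against Model 7 rose, beside 12.7% of all genes, or 11 without Model replicate 2, 3 without Model replicate 1, 2 without GelMA replicate 3 and 1 without Model replicate 5 or GelMA replicate 4. The part of B cells in the Fcgr2b values was not tested.

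The adaptor genes differed little between groups. Fcer1g had 307, 321 and 321 CPM in PMLGH, 330, 277 and 278 CPM in GelMA, and 282, 307 and 288 CPM in Model. PMLGH lay above Model by a margin of 0.646 CPM, and GelMA spanned both groups. Its log2 fold change was 0.12 ± 0.07 for PMLGH against Model and 0.01 ± 0.07 for GelMA against Model. Tyrobp had 210, 214 and 214 CPM in PMLGH, 215, 186 and 178 CPM in GelMA, and 194, 219 and 208 CPM in Model, and overlapped in every pair of groups, with log2 fold changes against Model of 0.04 ± 0.07 for PMLGH and -0.10 ± 0.07 for GelMA, and of 0.14 ± 0.07 for PMLGH against GelMA. The 6 genes most like Fcer1g by the same measure were Leprotl1, Degs1, Nuak2, Fbxl20, Msl1 and Pxk, at 0.037 to 0.05.

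Fcgrt, the IgG-recycling receptor of endothelium and myeloid cells, had 167, 193 and 181 CPM in PMLGH, 167, 160 and 165 CPM in GelMA, and 172, 167 and 162 CPM in Model. PMLGH and GelMA were separated by only 0.0752 CPM, and PMLGH and GelMA each overlapped Model. Its log2 fold change was 0.11 ± 0.06 for PMLGH against Model, -0.02 ± 0.06 for GelMA against Model and 0.14 ± 0.06 for PMLGH against GelMA. Genes of the endothelium list summed to 543.8 to 555.3 CPM in PMLGH, 487.8 to 525.5 CPM in GelMA and 422.8 to 454.2 CPM in Model, and their part in the Fcgrt values was not tested.

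Across the 8 genes, 5 were past the threshold and higher in PMLGH against Model (Fcrl2, Fcgr1a, Fcgr2a, Fcgr3a and Fcgr2b), where 15.7% of all tested genes were called higher. For GelMA against Model the count was 2 (Fcrl2 and Fcgr2b), with 12.7% of all genes called higher, and for PMLGH against GelMA it was 1 (Fcgr3a), with 1.8% called higher. Libraries did not overlap, with the first group higher, for 6, 2 and 4 of the 8 genes in these comparisons, beside 21.1%, 19.8% and 12.3% of all tested genes. The genes were chosen with these values in view, so these counts are no test of them. The 3 comparisons share libraries and are not independent of each other.

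**Figure D3:**
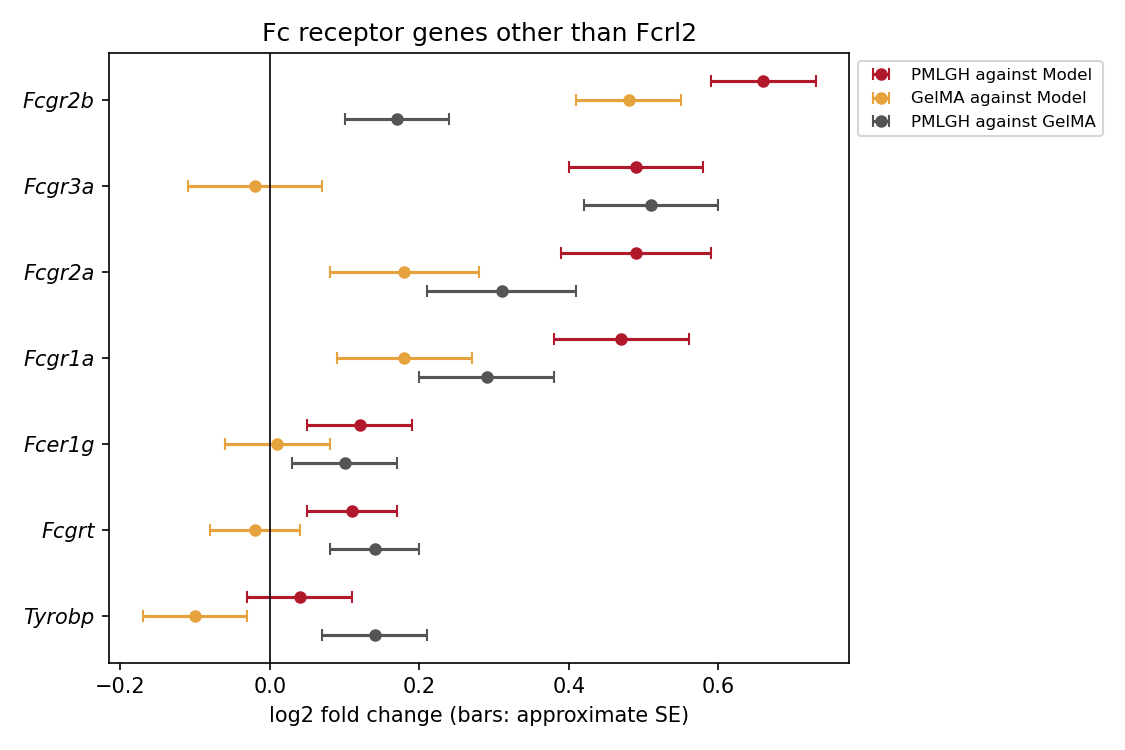
Log2 fold change (horizontal axis) of the 7 genes other than Fcrl2, whose larger values are in the text, with the approximate SE as bars and the 3 comparisons in colour. The points lie between -0.10 (Tyrobp, GelMA against Model) and 0.66 (Fcgr2b, PMLGH against Model), and for Fcgr3a only the GelMA against Model point lies near 0.

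On the FPKM scale, which divides by 1 length per gene, Tyrobp and Fcer1g were the highest and Fcrl2 the lowest of the 8 in all 3 groups. Orders between genes rest on these lengths, whose source annotation is not known. The FPKM implied 600 bases for Tyrobp, 954 for Fcer1g, 4274 for Fcgr2a and 1174 for Fcgr3a. By CPM, Fcer1g lay above Tyrobp and Fcgr2a above Fcgr3a. Mean FPKM of Tyrobp was 354 in PMLGH, 326 in GelMA and 341 in Model, and of Fcer1g 331, 314 and 303 in the same order. Their ranges over libraries overlapped in GelMA and in Model, but within every library Fcer1g was below Tyrobp. The ratio of Fcer1g to Tyrobp was 0.919 to 0.943 in PMLGH, 0.937 to 0.985 in GelMA and 0.872 to 0.913 in Model. Then followed Fcgrt at 103, 95.1 and 94.2 FPKM and Fcgr1a at 51.1, 42.6 and 36.7 FPKM. Fcgr3a came next at 31.2, 22.2 and 21.9 FPKM, then Fcgr2b at 18.7, 16.9 and 11.8 FPKM, and Fcgr2a at 12.5, 10.3 and 8.87 FPKM. Fcrl2 reached 9.59, 8.83 and 6.30 FPKM in the PMLGH libraries and 6.91, 8.04 and 7.62 FPKM in the GelMA libraries, against 0.389, 0.566 and 0.425 FPKM in the Model libraries.

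Set against their adaptor, the activating receptors stood highest in PMLGH. The summed FPKM of Fcgr1a, Fcgr2a and Fcgr3a, which signal through Fcer1g, was 28.3%, 28.1% and 29.5% of Fcer1g FPKM in the PMLGH libraries, 22.6%, 23.6% and 25.8% in the GelMA libraries, and 20.7% to 23.1% in the Model libraries. PMLGH lay above both other groups, and GelMA overlapped Model. This sum without Fcgr2b was chosen after seeing the data. All percentages and shares here rest on the same gene lengths. The FPKM of the 4 Fc gamma receptor genes summed to 114 ± 3.6 in PMLGH, 91.9 ± 5.3 in GelMA and 79.2 ± 7.4 in Model. Divided by Fcer1g FPKM, this sum of 4 was 33.8%, 34.0% and 35.1% in the PMLGH libraries, 27.9%, 29.0% and 31.3% in the GelMA libraries, and 24.5%, 26.6% and 27.3% in the Model libraries. With Fcgr2b in the sum the 3 groups did not overlap, although Fcgr2b does not signal through Fcer1g. The share of the inhibitory Fcgr2b in the 4 receptors was 16.3%, 17.4% and 15.8% in PMLGH, 19.0%, 18.5% and 17.5% in GelMA, and 15.7%, 13.8% and 15.2% in Model. Here GelMA was highest and the 3 groups again did not overlap, by a margin as narrow as 15.8% in PMLGH against 15.7% in Model. The share of Fcgr3a was 27.5% in PMLGH, 24.1% in GelMA and 27.8% in Model. Fcgr1a made up 45.0%, 46.3% and 46.1%, and Fcgr2a 11.1%, 11.2% and 11.2%, in PMLGH, GelMA and Model.

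Beside the receptors stand the macrophage genes. Of 30 tested genes of the macrophage and monocyte list, 22 rose and 1 fell in PMLGH against Model, 11 rose and 2 fell in GelMA against Model, and 9 rose in PMLGH against GelMA, beside 15.7%, 12.7% and 1.8% of all genes called higher and 11.9%, 9.88% and 1.64% called lower. Their median log2 fold change was 0.46, 0.21 and 0.25 in these comparisons, against 0.017, 0.028 and 0.003 over all genes. In PMLGH against GelMA 15 genes rose without Model replicate 2, 6 without any 1 GelMA or PMLGH library, 5 by limma on log2(FPKM + 1) and 3 by the same with no filter, and without GelMA replicate 4 or Model replicate 5, 7 rose in GelMA against Model. Sizes of change for single genes, here and below, are log2 fold changes ± SE. Cd14, the co-receptor for lipopolysaccharide, rose by 1.51 ± 0.09 in PMLGH against Model (edgeR adjusted p = 2.3e-08) and by 0.84 ± 0.09 in GelMA against Model (adjusted p = 1.7e-05). Adgre1, which encodes F4/80, rose by 1.11 ± 0.10 in PMLGH against Model (adjusted p = 2.3e-06) and by 0.64 ± 0.10 in PMLGH against GelMA (adjusted p = 0.0021, and 0.06 by limma on log2(FPKM + 1) with no filter). Tmem119, a microglial marker also expressed by osteoblasts, rose by 1.05 ± 0.08 in PMLGH against Model (adjusted p = 3.2e-07). C1qc, a chain of complement C1q, rose by 0.36 ± 0.05 in PMLGH against GelMA (adjusted p = 0.0011). These genes were named for their small p, and the list genes that fell are not among them. Cd163, also in the list, had 180 ± 11 CPM in PMLGH, 196 ± 8.5 CPM in GelMA and 210 ± 30 CPM in Model. Its libraries overlapped in all 3 comparisons. The list summed to 11850 to 12800 CPM in PMLGH, 9872 to 10630 CPM in GelMA and 9452 to 11970 CPM in Model.

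Lyz2, which neutrophils also express, made up 70.9% of that sum in PMLGH, 70.1% in GelMA and 73.4% in Model, so the 8 genes were also divided by the list without Lyz2, a choice made after seeing the data. Without it the list summed to 3610 ± 130 CPM in PMLGH, 3060 ± 90 CPM in GelMA and 2840 ± 340 CPM in Model. Fcrl2 per 1000 CPM of these macrophage genes was 6.57, 5.75 and 4.11 in PMLGH, 5.27, 6.34 and 5.71 in GelMA, and 0.363, 0.419 and 0.381 in Model. The gap between Model and both other groups thus remained. Fcgr2b also stayed apart from Model, at 18.0 ± 0.71 in PMLGH, 18.8 ± 1.3 in GelMA and 14.6 ± 1.7 in Model. Fcgr1a, at 19.3 ± 1.1, 18.6 ± 0.3 and 17.8 ± 1.2, and Fcgr2a, at 14.9 ± 1.4, 14.2 ± 1.7 and 13.5 ± 0.27, overlapped in all 3 comparisons. With Lyz2 in the list both separated PMLGH from Model, and Fcgr1a also separated GelMA from Model. Fcgr3a, at 10.2 ± 0.43 in PMLGH, 8.38 ± 0.84 in GelMA and 9.26 ± 1.3 in Model, separated PMLGH from GelMA but not from Model. With Lyz2 in the list Fcgr3a separated PMLGH from both, though from GelMA only by 2.8 in the lowest PMLGH library against 2.78. Fcer1g, at 87.8 ± 1.0, 96.3 ± 8.3 and 103 ± 7.4, and Tyrobp, at 59.1 ± 1.5, 62.9 ± 5.7 and 73.3 ± 4.8, were lower in PMLGH than in Model per 1000 CPM of macrophage genes, with no overlap; with Lyz2 in the list this held for Tyrobp, while Fcer1g overlapped. Fcer1g was also lower in PMLGH than in GelMA with no overlap, but narrowly. The highest PMLGH library had 88.8 against 89.6 in the lowest GelMA library without Lyz2, and 25.9 against 26.2 with it. Fcgrt, at 48.4, 52.6 and 49.0 in PMLGH, 53.5, 54.1 and 53.3 in GelMA and 66.1, 51.7 and 60.1 in Model, was likewise lower in PMLGH than in GelMA with no overlap, with or without Lyz2, whereas its undivided CPM was higher in PMLGH.

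**Figure D4:**
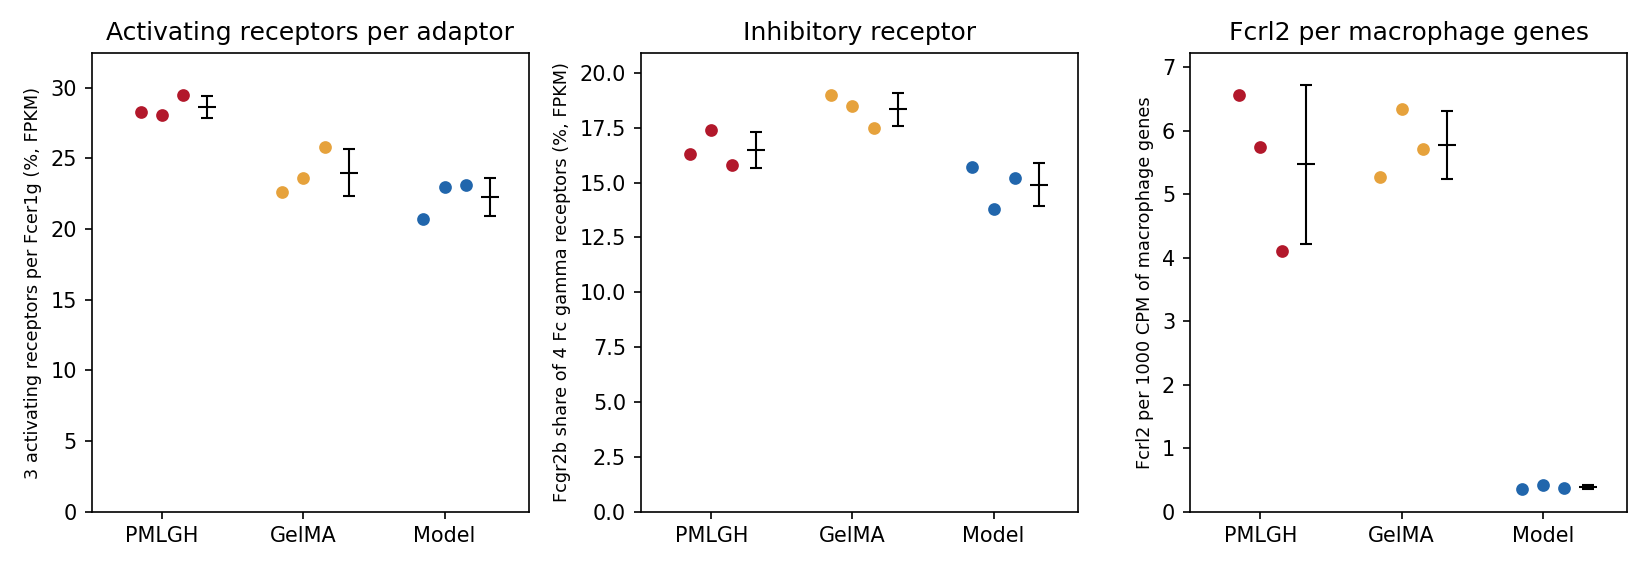
Per library, with PMLGH, GelMA and Model from left to right: the summed FPKM of the 3 activating Fc gamma receptors as a percentage of Fcer1g FPKM, the share of Fcgr2b in the FPKM of the 4 Fc gamma receptors, and Fcrl2 per 1000 CPM of macrophage genes without Lyz2; black marks give mean and SD of 3 libraries. PMLGH is highest in the first panel, at 28.1% to 29.5%, GelMA in the second, and Model is far lowest in the third, at 0.363 to 0.419.

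Genes that work with Fc receptors were taken from 5 lists. These were other Fc receptors, adaptor-coupled receptors, kinases and adaptors downstream of the ITAM, the actin machinery of phagocytosis, and inhibitory receptors and phosphatases. Of 115 genes listed, 110 had a row and 108 were tested. Because the lists were drawn up with earlier results known, the shares below describe them and test nothing. In PMLGH against Model 38 rose and 2 fell, a share of 35.2% that rose, beside 15.7% of all genes, with a median log2 fold change of 0.17. In GelMA against Model 23 rose and 1 fell, 21.3% beside 12.7%, with a median of 0.14. In PMLGH against GelMA 2 rose (Trem2 and Lilrb3) and 1 fell (Fcrla), and the 1.85% that rose stood beside 1.8% of all genes, with a median of 0.05. In that comparison 10 rose and 4 fell without Model replicate 2, and 0 to 4 rose without any other library. The counts depended on single libraries: for PMLGH against Model 57 rose without Model replicate 2, 23 without Model replicate 1, PMLGH replicate 3 or PMLGH replicate 4, and 19 without Model replicate 5. For GelMA against Model 53 rose without Model replicate 2, 10 without Model replicate 1, 11 without Model replicate 5, 9 without GelMA replicate 3 and 14 without GelMA replicate 4.

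Of 21 tested genes listed as adaptor-coupled receptors, 11 rose (52.4%, beside 15.7% of all genes) and 2 fell in PMLGH against Model. Without Model replicate 5, PMLGH replicate 3 or PMLGH replicate 4, 7 rose. The list is broader than receptors that couple to Fcer1g or Tyrobp. Clec7a, with a motif of its own, is in it, as are Hcst, Treml1 and Treml2. In GelMA against Model 6 rose (28.6%, beside 12.7%) and 1 fell, or 10 rose without Model replicate 2, 3 without Model replicate 1 and 2 without GelMA replicate 3. Trem2, a lipid receptor of macrophages and osteoclast precursors that signals through Tyrobp, had 9.89 to 14.0 CPM in the PMLGH libraries, 7.78 to 8.32 CPM in the GelMA libraries and 3.77 to 4.39 CPM in the Model libraries. It rose by 1.56 ± 0.14 in PMLGH against Model (edgeR adjusted p = 1.9e-06) and by 0.96 ± 0.15 in GelMA against Model (adjusted p = 0.00028). In PMLGH against GelMA it rose by 0.59 ± 0.14 (adjusted p = 0.025, 0.0061 to 0.14 under the alternatives). Clec4e, or Mincle, which couples to Fcer1g, rose by 1.04 ± 0.11 (adjusted p = 8.9e-06) in PMLGH against Model and by 0.81 ± 0.11 (adjusted p = 0.00014) in GelMA against Model. Clec7a, or Dectin-1, a receptor for fungal glucan with an ITAM-like motif of its own, rose by 0.53 ± 0.08 in PMLGH against Model (adjusted p = 0.00013). Oscar, the osteoclast-associated partner of Fcer1g, rose by 1.09 ± 0.18 in PMLGH against Model (adjusted p = 0.00034), and osteoclast genes as a list summed to 3197 to 3790 CPM in PMLGH, 2817 to 2971 CPM in GelMA and 1862 to 2328 CPM in Model. Treml2 and Treml1, named after their values were seen, fell in PMLGH against Model, Treml2 by 0.29 ± 0.05 (adjusted p = 0.001) and Treml1 by 0.24 ± 0.08 (adjusted p = 0.037, and 0.12 without Model replicate 5).

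Among inhibitory receptors and phosphatases 10 of 23 rose in PMLGH against Model (43.5%, beside 15.7% of all genes), or 4 without Model replicate 5. In GelMA against Model 7 of 23 rose (30.4%, beside 12.7%), or 12 without Model replicate 2 and 4 without Model replicate 1, Model replicate 5 or GelMA replicate 3. Lilrb3, an ITIM receptor of myeloid cells, rose by 1.24 ± 0.14 in PMLGH against Model (edgeR adjusted p = 1.2e-05), by 0.67 ± 0.14 in GelMA against Model (adjusted p = 0.0029) and by 0.57 ± 0.13 in PMLGH against GelMA (adjusted p = 0.027, 0.00047 to 0.21 under the alternatives). Cd33, a sialic acid receptor with an ITIM, rose by 0.85 ± 0.10 (adjusted p = 2.7e-05) in PMLGH against Model and by 0.53 ± 0.10 (adjusted p = 0.0018) in GelMA against Model. Pecam1, which endothelium also expresses, rose by 0.48 ± 0.06 in PMLGH against Model (adjusted p = 4.7e-05) and by 0.45 ± 0.06 in GelMA against Model (adjusted p = 0.00012).

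Of 31 kinases and adaptors downstream of the receptors, 7 rose in PMLGH against Model (22.6%, beside 15.7% of all genes) and 4 in GelMA against Model (12.9%, beside 12.7%), the second share being near that of all genes. Without Model replicate 2 these counts were 16 and 13, and without Model replicate 1 they were 2 and 1, without Model replicate 5 they were 3 and 1, without PMLGH replicate 3 they were 3 and 2, without PMLGH replicate 4 they were 4 and 2, and without GelMA replicate 3 or 4 the second was 1. Gab2, a docking protein, rose by 0.34 ± 0.07 (edgeR adjusted p = 0.0016) in PMLGH against Model, and Lyn, the kinase that phosphorylates the ITAM, by 0.35 ± 0.08 (adjusted p = 0.0054). Of 21 genes of the phagocytic actin and oxidase machinery, 8 rose in PMLGH against Model (38.1%, beside 15.7% of all genes) and 3 in GelMA against Model (14.3%, beside 12.7%, again near that of all genes). Without Model replicate 2 these counts were 16 and 13, the first was 3 to 5 without Model replicate 1 or 5, PMLGH replicate 3 or 4, or GelMA replicate 3 or 4, and the second was 1 without Model replicate 1 or 5, PMLGH replicate 3 or any 1 GelMA library. Elmo1, part of a Rac activator, rose by 0.39 ± 0.10 in PMLGH against Model (adjusted p = 0.0078) and by 0.41 ± 0.10 in GelMA against Model (adjusted p = 0.0073), with adjusted p of 0.069 and 0.059 by limma on log2(FPKM + 1) with no filter. Cybb, the catalytic subunit of the phagocyte oxidase, rose by 0.55 ± 0.14 in PMLGH against Model (adjusted p = 0.0099, and 0.088 with a robust spread), with libraries that overlapped. Neutrophils also use this machinery, and their list summed to 13780 to 17640 CPM in PMLGH, 13740 to 14850 CPM in GelMA and 12150 to 16050 CPM in Model.

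**Figure D5:**
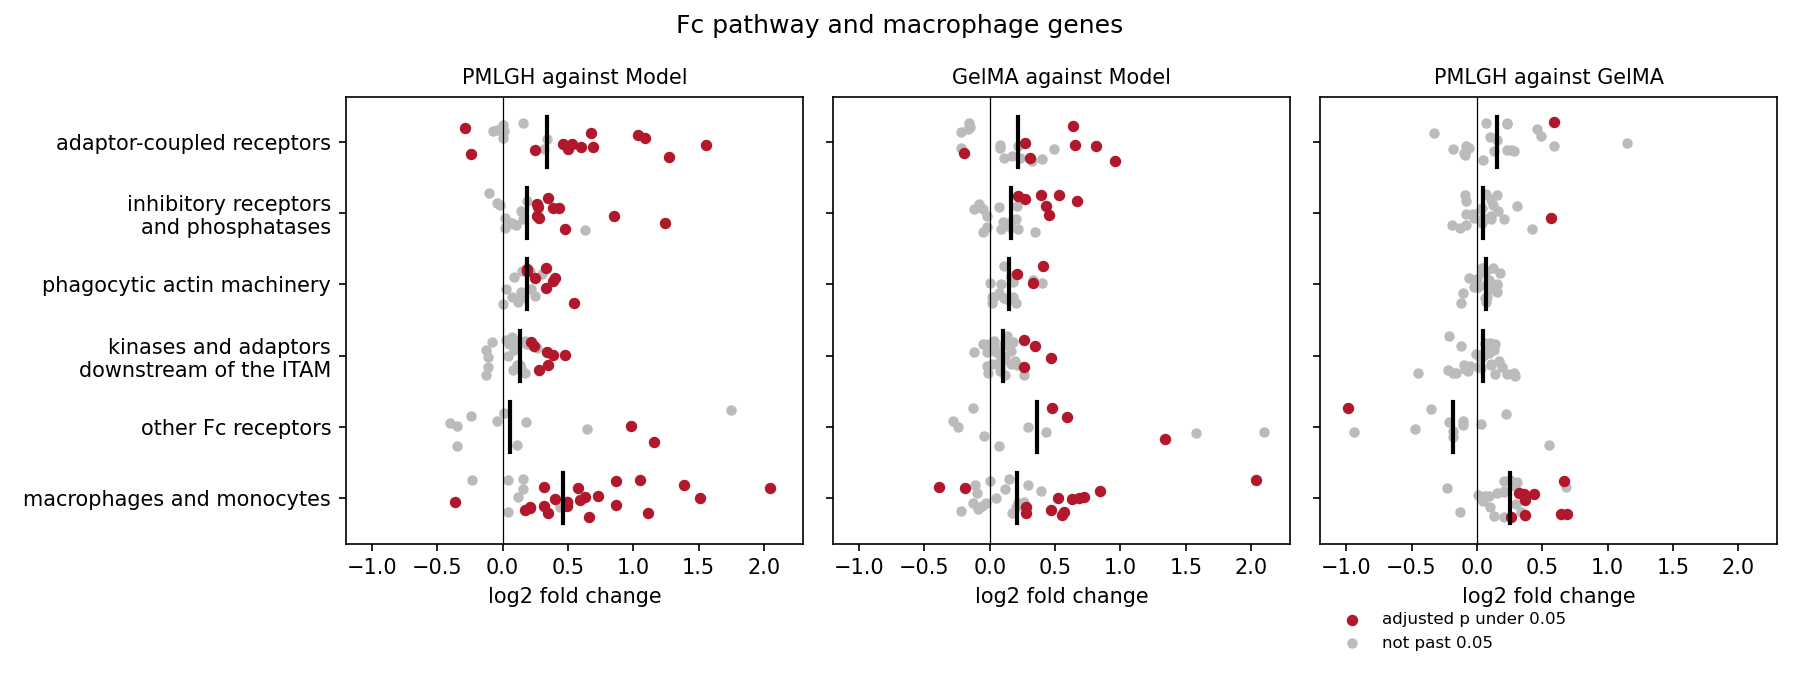
Log2 fold change (horizontal axis) of the tested genes of the 5 Fc pathway lists and of the macrophage list, 1 point per gene, for the 3 comparisons; red points had an edgeR adjusted p under 0.05, grey points did not, black bars are list medians, and vertical scatter within a list is only for visibility. Most red points lie right of 0 in the panels against Model, and 3 red points of the 5 Fc pathway lists are left in the panel of PMLGH against GelMA.

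Of 12 other Fc receptor genes, 2 rose in PMLGH against Model (16.7%, beside 15.7% of all genes, and so near it) and 3 in GelMA against Model (25.0%, beside 12.7%). The 3 became 5 without Model replicate 2 and 1 without Model replicate 1 or 5 or GelMA replicate 3 or 4. Cd247, the zeta chain used by the NK cell receptor for IgG, rose by 0.98 ± 0.21 in PMLGH against Model (edgeR adjusted p = 0.0032), and T and NK cell genes summed to 393.1 to 406.0 CPM in PMLGH, 342.7 to 369.5 CPM in GelMA and 271.2 to 329.2 CPM in Model. Fcrl5, a B-lineage receptor, rose by 1.16 ± 0.27 in PMLGH against Model (adjusted p = 0.0047) and by 1.34 ± 0.27 in GelMA against Model (adjusted p = 0.0022). Fcrla, a B cell Fc receptor-like protein, had a mean of 29.0 ± 3.0 CPM in PMLGH, 57.3 ± 7.5 CPM in GelMA and 38.1 ± 15 CPM in Model, and fell by 0.99 ± 0.19 in PMLGH against GelMA (adjusted p = 0.0074, and 0.14 with a robust spread), and the B cell list is given above. The part of these cell types in the changes was not tested.

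The ligand side could be read only in part, because 7 of 20 listed genes of immunoglobulins and plasma cells matched a row, with no immunoglobulin constant gene among them. Of these 7, 4 rose in PMLGH against Model and 4 in GelMA against Model, beside 15.7% and 12.7% of all genes. Their median log2 fold change was 0.44 and 0.81 in these comparisons. In PMLGH against GelMA 1 of the 7 rose (Sdc1) and 0 fell, beside 1.8% and 1.64% of all genes. The median there was -0.29, so Sdc1 does not stand for the list. Sdc1, a plasma cell surface proteoglycan that other cells also make, rose by 1.37 ± 0.07 in PMLGH against Model (edgeR adjusted p = 4.3e-09) and by 0.56 ± 0.07 in PMLGH against GelMA (adjusted p = 0.00026). Mzb1, a chaperone of antibody secretion, rose by 0.87 ± 0.18 in PMLGH against Model (adjusted p = 0.002) and by 1.16 ± 0.18 in GelMA against Model (adjusted p = 0.00027). Beyond these lists, skeletal muscle genes summed to 1171 to 1623 CPM in PMLGH, 3483 to 4261 CPM in GelMA and 747 to 1055 CPM in Model, and mast cell and basophil genes to 334.8 to 367.6, 388.6 to 415.1 and 268.9 to 382.2 CPM. The part of these differences in tissue content in the Fc receptor values was not tested.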

How the data were processed

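Total RNA of 9 tibia libraries was described by a table of raw counts per gene, deposited by the authors without scaling, and a table of FPKM, deposited by the authors under that name. Dividing counts by the total of each library and by a single length per gene gave the FPKM back within 0.0001 for all 22798 genes with a count, so FPKM adds no independent measurement. The submitters' processing notes name DESeq2 and R 3.2.0 without a role. The aligner, counter, genome build, annotation and strand: not given in the sources used here. Reads of antisense partners are therefore not separable.

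The 8 genes and all lists were chosen with earlier results of these data known. edgeR 4.0.16 in R 4.3.3 was used with filterByExpr, TMM scaling and a quasi-likelihood fit of 1 mean per group to all 9 libraries (6 residual degrees of freedom), with two-sided tests and Benjamini-Hochberg adjustment over 16816 genes; the common biological coefficient of variation was 10.1%. The ± of a log2 fold change is its size divided by the square root of F. Named were the 8 genes, up to 4 genes of smallest p per Fc pathway or ligand list and up to 3 per cell type list among those passing, and the 6 genes most like Fcrl2 and Fcer1g. Gene symbols and promoters came from RefSeq, assembly GRCr8; 20533 of 23768 symbols and all 8 genes matched. Same-numbered PMLGH and GelMA libraries were not treated as pairs. Alternatives were upper-quartile and other scaling, filters, a robust spread, fewer libraries, DESeq2 1.42.0 and limma 3.58.1 on log2(FPKM + 0.1 or 1). The fit was tested on simulated data.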

Additional observations from a re-analysis of the deposited data

How the results depend on the processing

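Of 440 values of the 8 genes' log2 fold changes under the alternatives, 435 differed from the reported value by less than their spread, 5 moved and 0 changed the sign of a called value; the 5 were Fcrl2 on the log2(FPKM + pseudocount) scales. The counts of genes past the threshold also depended on the setting.

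Leaving out 1 library at a time, 1976 to 2873 genes rose and 1268 to 2795 fell in PMLGH against Model (2637 and 1994 with all libraries), 1454 to 2585 rose and 1035 to 2468 fell in GelMA against Model (2143 and 1661), and 143 to 586 rose and 144 to 464 fell in PMLGH against GelMA (303 and 275). Of the Fc pathway genes, 19 to 57 rose and 1 to 4 fell in PMLGH against Model, 9 to 53 rose and 0 to 4 fell in GelMA against Model, and 0 to 10 rose and 0 to 4 fell in PMLGH against GelMA. Fewest genes fell in PMLGH against Model without PMLGH replicate 3, fewest in GelMA against Model without Model replicate 1, and in PMLGH against GelMA most rose and fell without Model replicate 2, fewest rose without PMLGH replicate 3 and fewest fell without GelMA replicate 4.

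Under limma on log2(FPKM + 1) with no filter, the Fc pathway genes that rose were 22 in PMLGH and 12 in GelMA, both against Model, with 1 that fell in PMLGH, and in PMLGH against GelMA 0 rose and 0 fell; among all genes 910 fell in GelMA against Model, and 132 rose and 181 fell in PMLGH against GelMA. With log2(FPKM + 0.1), 1107 genes fell in GelMA against Model, 176 rose in PMLGH against GelMA, and 1 Fc pathway gene fell in PMLGH against Model and 1 rose in PMLGH against GelMA; with log2(FPKM + 1), 196 genes rose in PMLGH against GelMA, with the same Fc pathway counts of 1 and 1. With no filter on low counts, 4 and 2 Fc pathway genes fell in PMLGH and GelMA against Model, and 455 genes and 5 Fc pathway genes rose and 3 Fc pathway genes fell in PMLGH against GelMA. With DESeq2, 2 Fc pathway genes fell in GelMA against Model, and 460 genes and 5 Fc pathway genes rose and 3 Fc pathway genes fell in PMLGH against GelMA. In PMLGH against GelMA a robust spread gave 1 Fc pathway gene that rose and 0 that fell, upper-quartile scaling 2 that fell, and the 6 libraries alone 590 genes that rose and 469 that fell, with 9 and 4 Fc pathway genes. Among single lists, limma on log2(FPKM + 1) with no filter lowered the genes that rose in PMLGH against Model to 4 kinases and adaptors, 2 of the phagocytic machinery and 6 inhibitory receptors and phosphatases, and in GelMA against Model to 1 kinase or adaptor, 0 of the phagocytic machinery and 7 macrophage genes. Macrophage genes that rose in PMLGH against GelMA were 5 with log2(FPKM + 0.1), 14 with no filter on low counts and 16 in the 6 libraries alone. The cause was not tested.

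PMLGH and GelMA share replicate numbers 2, 3 and 4, but the deviations of same-numbered libraries correlated at 0.014, 0.027 and -0.0083, so the numbers were not taken as pairs. A fit with the replicate block gave 577 genes that rose and 460 that fell in PMLGH against GelMA, with 10 and 4 Fc pathway genes. No paired analysis was possible for the comparisons with Model because they share only number 2.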

Other observations

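Cd5l, the annotated protein-coding neighbour of Fcrl2 in the RefSeq table, went the other way. This macrophage-secreted protein was chosen for its position after its values were seen. It had 103, 96.6 and 114 CPM in PMLGH, 104, 87.9 and 107 CPM in GelMA, and 141, 124 and 135 CPM in Model. Both PMLGH and GelMA lay below Model with no overlap, where Fcrl2 lay above it, and PMLGH and GelMA overlapped.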
